A study of Macaca mulatta with 40 samples.

Results

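This section compares 4 muscle libraries taken to be those set aside for degraded RNA with the 16 other libraries of the same set. They were CTR_2 and CTR_8 from control monkeys and CALRES_2 and CALRES_3 from calorie-restricted monkeys, 4 of the 20 libraries of the first library set and of the 40 libraries of the whole series. The study's methods set aside 4 samples for a low RNA integrity number, a score of how whole the RNA is, without naming them by library. Which libraries they were is an inference here. The ages at death of CTR_2 and CALRES_2 have no point in the study's plot of lifespan, although the lifespan ranges in its text include them, and the choice of CTR_8 and CALRES_3 is less sure. The integrity number of each library was not used here. The comparison asked which muscle transcripts were lost and which were kept in these libraries, with diet as a covariate.

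Each library came from the vastus lateralis, a thigh muscle, of 1 rhesus monkey, frozen after the animal died, and held total RNA depleted of ribosomal RNA. The CTR animals were controls. The CALRES animals were given fewer calories than controls for much of their lives. The kept libraries were 8 CTR and 8 CALRES libraries from animals that died at 21.65 to 42 years of age, and the left-out animals died at 20.73 (CTR_2), 33.25 (CTR_8), 20.59 (CALRES_2) and 32.56 (CALRES_3) years. The left-out animals were on average 5.58 years younger (p = 0.159, two-sided exact permutation test within diet). Y-linked transcripts were near 0 in both CTR left-out libraries and high in both CALRES left-out libraries, so sex and diet cannot be told apart among the 4.

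RNA breaks down as a tissue dies, is stored and is thawed, and a longer molecule offers more places to be cut. The integrity number is read from the ribosomal RNA, the bulk of a cell's RNA, and says little about which messengers are affected. Skeletal muscle is an informative tissue for this question, because it makes some of the longest transcripts of the body, such as that of titin, beside very abundant short ones for myoglobin, troponins and the subunits of the respiratory chain.

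Total counts ran from 100999977 to 159593432 in the left-out libraries and from 86580429 to 329942965 in the kept ones, so depth did not separate them. The left-out libraries were not all alike, and some kept libraries resembled them. On the first principal component of all genes tested, which held 24.8% of the variance, CTR_2, CALRES_2 and CALRES_3 ranked 1, 3 and 5 of the 20 libraries. The kept libraries CALRES_6 and CALRES_8 ranked 2 and 4, and CALRES_10 ranked 6. CTR_8 ranked 8, among the kept libraries. Every result below rests on the 4 libraries as inferred, whatever a library's own profile.

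For each library, each gene's deviation from its median over the 20 libraries was set against the length of its longest annotated transcript (13926 genes with a length). The slope of that relation was -0.31 log2 CPM (counts scaled to library size) per doubling of length in CTR_2, -0.38 in CALRES_2 and -0.30 in CALRES_3. In those 3 libraries long transcripts were low and short ones high. CTR_8 had a slope of 0.07. The kept libraries ran from -0.36 (CALRES_6) through a median of 0.03 to 0.37 (CTR_5), and CALRES_8 stood at -0.29. The left-out mean was -0.23 and the kept mean 0.03, a difference of -0.27 (p = 0.0316, exact permutation within diet, two-sided). After adjustment over the 10 library measures that were tested the p was 0.0790. Without CTR_2 the difference was -0.17 (p = 0.200, exact) and without CALRES_2 it was -0.24 (p = 0.0889, exact).

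**Figure D1:**
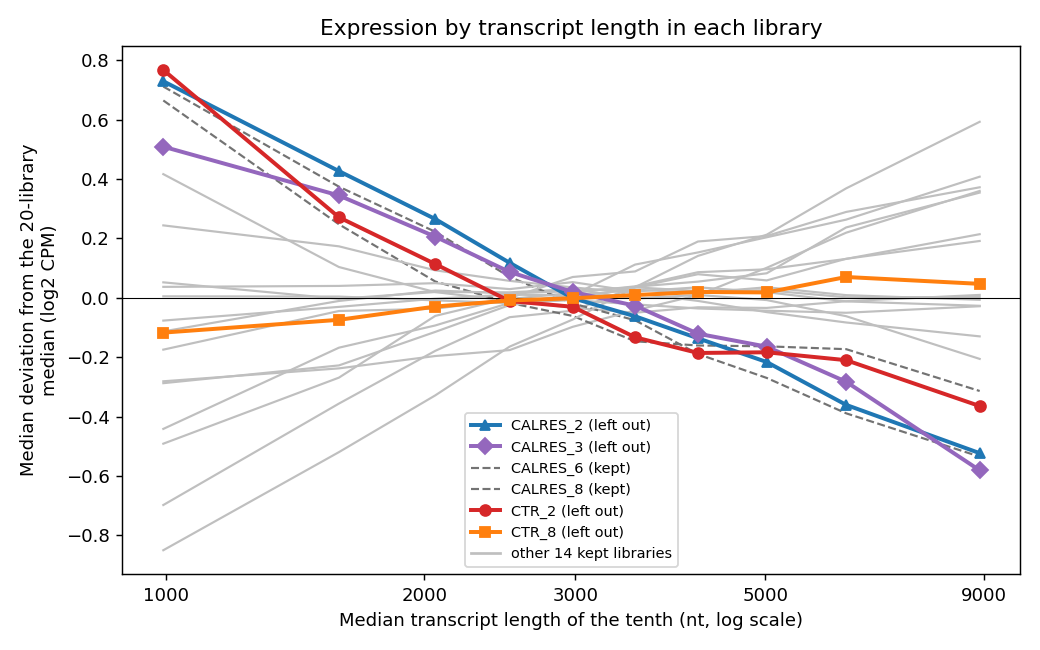
Median deviation from the 20-library median (log2 CPM) of genes in each decile of transcript length, for each library; coloured lines are the 4 left-out libraries, dashed lines the kept libraries CALRES_6 and CALRES_8, and grey lines the other kept libraries. CTR_2 fell from 0.77 at the shortest transcripts to -0.36 at the longest and CALRES_2 from 0.73 to -0.52, whereas CTR_8 ran from -0.12 to 0.05 and CALRES_6 from 0.71 to -0.53.

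The same shift was seen in the share of reads. Of the counts on protein-coding genes with an annotated length, transcripts over 7 kb took 7.28% in CTR_2, 8.25% in CALRES_2, 6.65% in CALRES_3 and 18.9% in CTR_8. In the kept libraries they took from 8.68% (CALRES_6) through a median of 21.9% to 50.9% (CTR_5). Transcripts under 1.5 kb took 38.0% in CTR_2, 31.6% in CALRES_2, 26.9% in CALRES_3 and 18.8% in CTR_8, against 6.33% to 34.5% in the kept libraries. CTR_2, CALRES_2 and CALRES_3 were below every kept library in the long share, and CTR_8 lay inside the kept range in both. The left-out mean of the long share was 10.3% ± 5.78 (SD, n = 4) and the kept mean 25.3% ± 12.4 (SD, n = 16). The exact permutation p was 0.0257 (adjusted 0.0790), and 0.133 without CTR_2 and 0.0593 without CALRES_3. For the short share the means were 28.8% and 16.03% (exact p = 0.0138, adjusted 0.0691), and without CTR_2 the p was 0.0963.

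Protein-coding genes together took 54.5% of all counts in CTR_2, 65.2% in CALRES_2, 66.0% in CALRES_3 and 71.3% in CTR_8. The kept CTR libraries held 76.3% to 84.5%, above both left-out CTR libraries, and the kept CALRES libraries 58.1% to 82.1%. The difference between the group means was -11.7 percentage points (exact p = 0.0133, adjusted 0.0691), and -7.45 points without CTR_2 (exact p = 0.0568). The RNA of the signal recognition particle, a small structural RNA that guides secreted proteins to the endoplasmic reticulum, took 19.7%, 9.44%, 15.4% and 13.01% of all counts in CTR_2, CTR_8, CALRES_2 and CALRES_3. The kept libraries ran from 3.47% (CTR_5) through a median of 6.94% to 21.1% (CALRES_8), higher than any left-out library. The kept CALRES_6 held 17.7% and CALRES_10 15.9%. For this RNA the exact permutation p was 0.0420 (adjusted 0.0840). That p rose above 0.05 without CTR_2 (0.198), CALRES_2 (0.133) or any of the kept CALRES_1, 4, 5, 7 and 9 (0.0537 to 0.0617). This RNA has many near-identical copies in the genome and whether reads matching several places were counted is not given in the sources used here, so its level is uncertain.

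Messengers encoded by the mitochondrial genome took 5.90% of all counts in CTR_2, 12.4% in CTR_8, 5.71% in CALRES_2 and 1.69% in CALRES_3. CTR_8 was above the highest kept library (8.67%, CALRES_4), and CALRES_3 was near the kept median of 1.36%. The exact permutation p of 0.106 (adjusted 0.152) fell to 0.0395 without CALRES_3 and 0.0475 without the kept CALRES_4. The slope of expression on GC content was lower in the left-out libraries by 0.14 log2 CPM per 10 percentage points (exact p = 0.0849), with p = 0.0167 without the kept CALRES_7. The number of genes detected at 1 CPM or more was 11440, 11970, 11870 and 11380 in CTR_2, CTR_8, CALRES_2 and CALRES_3, with kept libraries between 11250 and 12800 (exact p = 0.288). The share of the 10 most abundant genes (35.6% against 36.1%, exact p = 0.879) and the distance from the median profile (0.55 against 0.52 log2 CPM, exact p = 0.722) differed by less than their spread. None of the 10 measures passed an adjusted p of 0.05.

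**Figure D2:**
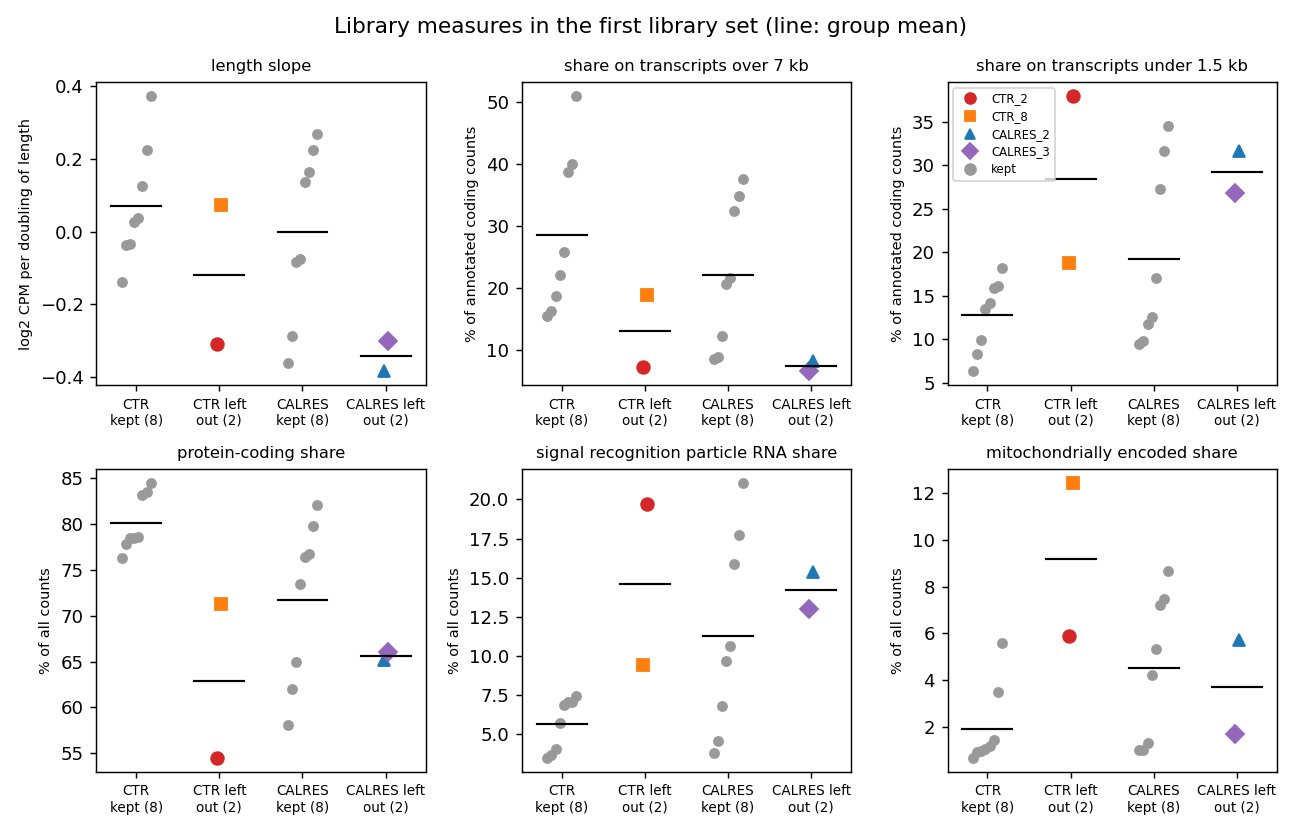
Values of 6 library measures in each of the 20 libraries, by diet and by whether the library was left out; coloured symbols are the left-out libraries, grey points the kept ones and bars the group means. CTR_2 had the lowest protein-coding share (54.5%), and CTR_8 had the highest mitochondrially encoded share (12.4%) while its length slope (0.07) lay among the kept libraries.

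Few single genes passed adjustment over all genes tested. Of 18409 genes tested with edgeR's quasi-likelihood test, 3 passed an adjusted p of 0.05 (0.0163% of those tested). All 3 were higher in the left-out libraries and none has a gene symbol in the reference used. None was lower (0 by edgeR and by limma-voom, 744 by DESeq2, and 1986 by edgeR at an unadjusted p under 0.05). The count of 3 was 0 without CTR_2, CTR_8, CALRES_3 or the kept CTR_1 or CTR_6, 1 without the kept CTR_3, CTR_4, CTR_9, CALRES_1, CALRES_5, CALRES_6 or CALRES_7, and 9 without the kept CALRES_8. DESeq2 called 258 genes higher.

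ENSMMUG00000065362 was the most abundant of the 3. It stood at 13.98 log2 CPM in CTR_2, 13.37 in CTR_8, 12.19 in CALRES_2 and 13.25 in CALRES_3, and in the kept libraries at 9.80 (CTR_10) to 12.02 (CALRES_6) with a median of 11.38. All 4 left-out libraries were above all 16 kept ones. The log2 fold change was 2.17 ± 0.37 (SE), 4.50-fold higher, with an adjusted p of 0.0457. ENSMMUG00000028701 was at 3.76, 2.83, 1.84 and 2.98 log2 CPM in CTR_2, CTR_8, CALRES_2 and CALRES_3 and at -0.04 to 1.59 in the kept libraries (log2 fold change 1.91 ± 0.29, adjusted p = 0.0198). ENSMMUG00000053137 had a log2 fold change of 1.85 ± 0.30 (adjusted p = 0.0328). ENSMMUG00000028701 and ENSMMUG00000053137 had a Pearson correlation of 0.997 over the 20 libraries, so that they may share reads and their separate levels are uncertain. ENSMMUG00000065362 had Pearson correlations of 0.92 and 0.918 with them, so the 3 genes varied together over the libraries. VAX2 (Pearson 0.825), MRPL35 and ATP6 (both 0.824) were among the genes with a symbol that followed ENSMMUG00000065362 most closely over the 20 libraries.

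At an unadjusted p under 0.01, the threshold of the study's own gene tests, 1183 genes differed (6.43%), of which 534 were higher (2.9%) and 649 lower (3.53%) in the left-out libraries. None of them except the 3 above passed the adjusted threshold, and the highest adjusted p among them was 0.155. The median log2 fold change over all genes was -0.03. These counts leaned on CTR_2: without it 75 genes were higher and 106 lower, and 168 of the 1183 remained. Without CALRES_2 276 genes were lower, and without CALRES_3 425. Without the kept CTR_6 or CTR_9 325 and 331 genes were higher, and without the kept CALRES_8 842. Of the 54 genes past this threshold whose values are given here, 29 stayed past it without CTR_2, 44 without CALRES_2 or CALRES_3, 47 without CTR_8 and 48 to 54 without a kept library.

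The genes that differed sorted by transcript length. In the shortest decile of annotated transcripts, up to 1318 nt, the median log2 fold change was 0.50, and 112 genes were higher and 5 lower at p under 0.01. In the longest decile, from 7275 nt, the median was -0.51, and 12 genes were higher and 223 lower. The medians fell at every step in between. Genes that were higher had a median transcript of 2086.5 nt with 6 exons, those that were lower one of 6408 nt with 19 exons, and all annotated genes one of 3259 nt with 9. Coding length followed the change most closely (Spearman -0.429 across 13528 genes), ahead of transcript length (-0.383 across 13926), exon number (-0.275) and length of the 3′ untranslated region (-0.194). These are descriptions across genes, which share libraries and are not independent. Without CTR_2 the median was 0.29 in the shortest decile and -0.47 in the longest, and without CTR_8 0.62 and -0.69. Without the youngest pair, CTR_2 and CALRES_2, it was 0.12 in the shortest decile and -0.40 in the longest. With the replicate number as a block, where CTR_2 and CALRES_2 cancel, the sorting by length was not seen (-0.19 and -0.033, Spearman 0.0433). That fit set CTR_8, with a slope of 0.07, against the kept CALRES_8, with a slope of -0.29. It also set CALRES_3 (-0.30) against the kept CTR_3 (-0.04). It thus cannot show whether CTR_2 and CALRES_2 sorted by length.

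Base composition added to length. In the lowest decile of GC content, up to 39.3%, 121 genes were higher and 8 lower and the median change was 0.31, and it reached -0.24 at 59.0% to 62.3%. In the highest decile, up to 76.98%, it was -0.11, with 36 genes higher and 61 lower. Among short transcripts, up to 2438 nt, the median went from 0.41 at low GC to 0.19 at high GC. Among long ones, over 4297 nt, it went from -0.05 at low GC to -0.71 at high GC, where 1 gene was higher and 167 were lower of 982. Long transcripts of low GC content thus stood close to the median of all genes.

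**Figure D3:**
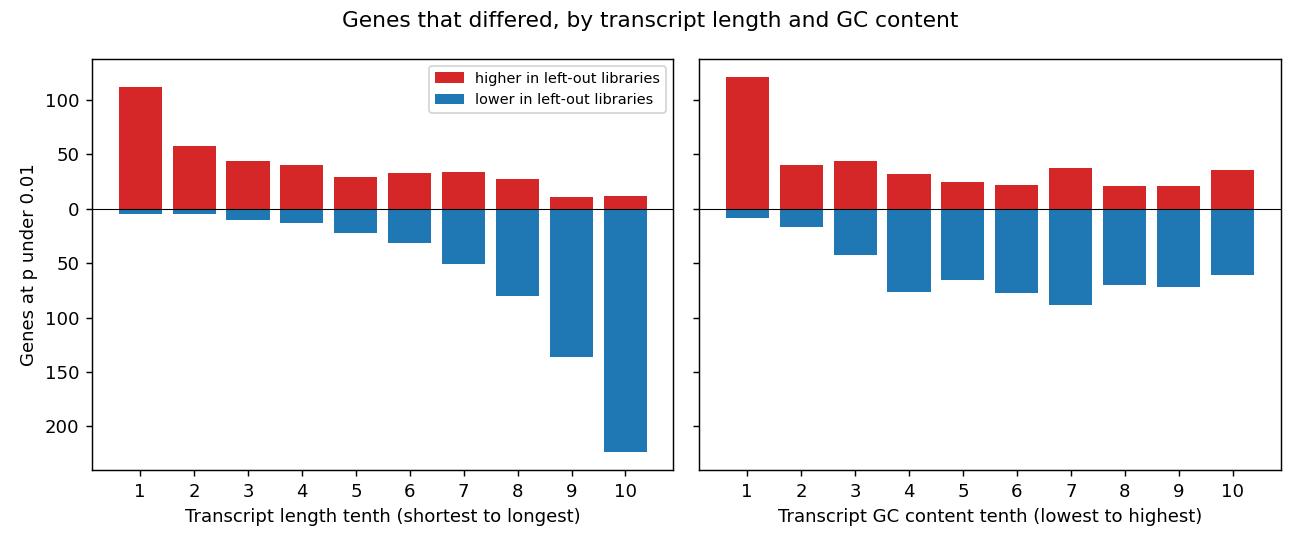
Numbers of genes at p under 0.01 that were higher (red, upward) or lower (blue, downward) in the left-out libraries, by deciles of transcript length (left) and of transcript GC content (right). The longest decile held 223 lower genes and the shortest 5.

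Of the genes with a symbol, the 12 with the lowest p among those that were lower were CPT1A, ABCA7, CDK5R1, MYO18B, SRRM2, TNRC18, RAI1, EHBP1L1, CREBBP, TMEM63A, IGF1R and OSBP. Their annotated transcripts ran from 3864 nt (CDK5R1) to 12740 nt (TNRC18). MYO18B (chromosome 10 of Mmul_10 from 25529665 to 25829060), an unconventional myosin of the sarcomere with a transcript of 8183 nt, stood at 5.21 log2 CPM in CTR_2, 7.15 in CTR_8, 5.90 in CALRES_2 and 6.001 in CALRES_3. The kept libraries ran from 5.94 (CALRES_6) through 8.53 to 9.62. All 4 lay under the kept median, and CTR_2 and CALRES_2 lay under every kept library. Its log2 fold change was -2.37 ± 0.58 (SE; p = 0.000448, adjusted p = 0.141, edgeR).

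SRRM2, which encodes a large scaffold protein of nuclear splicing speckles, showed the same order with 5.48, 7.08, 5.74 and 5.77 log2 CPM in CTR_2, CTR_8, CALRES_2 and CALRES_3 against 5.97 to 9.31 in the kept libraries (log2 fold change -2.03 ± 0.50). CREBBP, a histone acetyltransferase, was at 4.34, 5.15, 4.40 and 4.197 against 4.52 to 7.29 (-1.75 ± 0.44), and EHBP1L1 at 5.17, 6.42, 5.69 and 5.51 against 5.91 to 8.75 (-1.89 ± 0.48). In each of these genes CTR_8 had the highest value of the 4 and CALRES_6 was the lowest kept library. IGF1R, the receptor of insulin-like growth factor 1, was at 2.19, 2.997, 1.85 and 1.96 log2 CPM against 2.82 (CTR_1) to 5.51, and only CTR_8 was inside the kept range (log2 fold change -1.71 ± 0.44). The adjusted p of all these was 0.141.

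A list of giant cytoskeletal and sarcomeric genes, with a median transcript of 15190 nt, had 19 members tested. Their median log2 fold change was -0.96, against -0.03 for all genes, and 18 of the 19 were below 0. At p under 0.01, 4 were lower (RYR1, PLEC, AHNAK and FLNC) and none higher, beside 3.53% of all genes lower. In the longest decile of annotated transcripts 223 of 1393 were lower. The count of 4 was 0 without CTR_2, 1 without CALRES_2 or CALRES_3, 7 without CTR_8, and 6 without the kept CTR_1 or CALRES_8. With GC content and length centred, 2 of the 19 were lower and 1 higher, and the median was -0.45. RYR1 (chromosome 19 from 37680723 to 37840193), the calcium release channel of the sarcoplasmic reticulum, was at 8.51, 10.03, 8.998 and 8.70 log2 CPM in CTR_2, CTR_8, CALRES_2 and CALRES_3. The kept libraries ran from 8.88 (CALRES_8) through 11.46 to 12.73, and the log2 fold change was -2.37 ± 0.69 (p = 0.00221). PLEC, which encodes the cytolinker plectin, had a log2 fold change of -2.20 ± 0.68 (p = 0.00383), AHNAK one of -1.86 ± 0.62 and FLNC, filamin C of the Z-disc, one of -1.83 ± 0.63. In the 20 fits that left out a library, FLNC did not pass in 10, AHNAK in 4, PLEC in 3 and RYR1 in 1.

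TTN (chromosome 12 from 65655525 to 65928956) encodes titin, the molecular spring of the sarcomere, and its transcript of 106434 nt was the longest measured. It stood at 13.98 log2 CPM in CTR_2, 14.47 in CALRES_2, 14.05 in CALRES_3 and 15.68 in CTR_8, with kept libraries from 14.43 (CALRES_8) through 16.40 to 18.38 (CTR_5). TTN alone took 1.21%, 2.12%, 1.44% and 5.48% of all counts in CTR_2, CALRES_2, CALRES_3 and CTR_8, and up to 33.4% in the kept CTR_5. Its log2 fold change of -2.10 ± 0.75 just missed the threshold (p = 0.0101). XIRP2, an actin-binding protein of the intercalated and Z-discs with a transcript of 12853 nt, had -1.62 ± 0.59 (p = 0.0122), and CTR_8 (11.44 log2 CPM) lay near its kept median of 11.57.

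**Figure D4:**
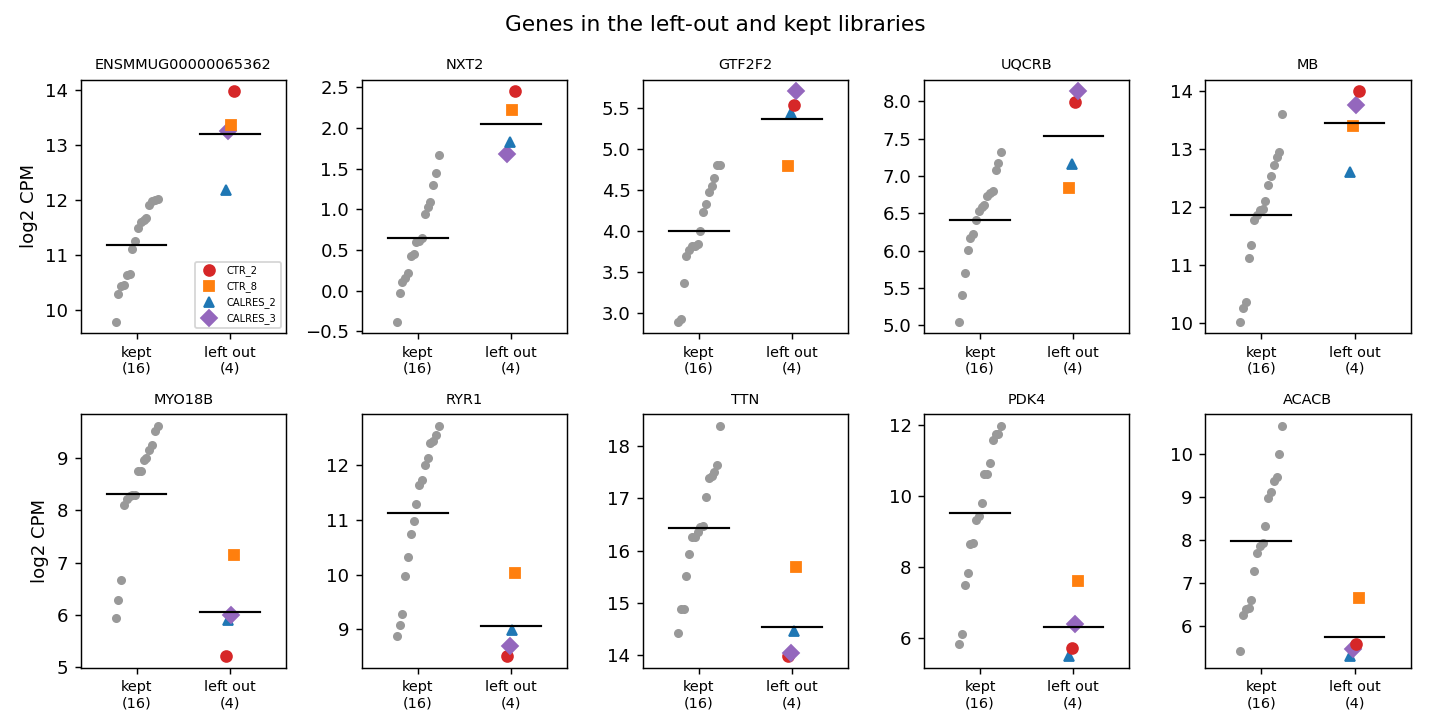
Level (log2 CPM) of 10 genes in each library, kept (grey) and left out (coloured symbols), with bars at the group means. For ENSMMUG00000065362 and NXT2 all 4 left-out libraries lay above the kept ones, and for MYO18B, RYR1, TTN, PDK4 and ACACB CTR_8 was the highest of the 4.

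The 12 genes with a symbol and the lowest p among those that were higher were NXT2, GTF2F2, KCNMB4, GCSH, CBLC, ANXA3, MRPL35, REXO5, GPM6A, C1H1orf54, SEC14L2 and C15H9orf85. NXT2 (chromosome X from 106295454 to 106304345), a messenger RNA export factor, stood at 2.45, 2.22, 1.83 and 1.68 log2 CPM in CTR_2, CTR_8, CALRES_2 and CALRES_3. All were above the highest kept library (1.67, CALRES_8). Its log2 fold change was 1.43 ± 0.28 (p = 4.35e-05, adjusted p = 0.141). GTF2F2, a subunit of the general transcription factor TFIIF, was at 5.53, 4.79, 5.43 and 5.70 log2 CPM against 2.90 to 4.80 in the kept libraries (1.31 ± 0.26). GCSH, of the mitochondrial glycine cleavage system, was at 5.48, 4.91, 5.11 and 5.09 against 3.45 to 5.13 (1.03 ± 0.22), and MRPL35, of the mitochondrial ribosome, had a log2 fold change of 1.499 ± 0.33. CALRES_8 was the highest kept library for GCSH and ANXA3 (1.63 ± 0.36), and CALRES_10 for MRPL35. KCNMB4, CBLC, GPM6A and C1H1orf54 had mean levels under 0 log2 CPM.

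Nuclear genes of the respiratory chain, which encode small subunits of complexes I to V and have a median transcript of 817 nt, were the list with the most genes past the threshold. Of 65 tested, 29 were higher at p under 0.01 and none lower, beside 2.9% higher among all genes, 62 had a log2 fold change above 0, and the median was 0.97. The count was 0 without CTR_2, 17 without the kept CTR_6 or CTR_9 and 19 without CALRES_3, and without CTR_2 the median was 0.67. UQCRB, of complex III, was at 7.98 log2 CPM in CTR_2, 6.84 in CTR_8, 7.16 in CALRES_2 and 8.13 in CALRES_3, with kept libraries from 5.05 (CTR_10) through 6.56 to 7.32 (CALRES_8). CTR_2 and CALRES_3 were above all kept libraries and the others were inside the range. The log2 fold change was 1.13 ± 0.30 (p = 0.00114). ATP5ME, of the ATP synthase, with a transcript of 373 nt, had 1.13 ± 0.31 (p = 0.00157). SDHB (1.35 ± 0.38), NDUFA4 (1.63 ± 0.47), COX6C (1.596 ± 0.47) and COX7B (1.90 ± 0.58) were also higher. None of the 6 genes named in this list so far passed without CTR_2, and UQCRB did not pass without CALRES_3 either. COX7B was at 10.43 log2 CPM in CTR_2, above the highest kept library (9.84, CALRES_8). In CALRES_2, CALRES_3 and CTR_8 it was at 9.49, 9.16 and 7.81, all below that library. With the GC content and length of each transcript centred in every library, 7 of 61 tested were higher and the median was 0.36.

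In NDUFA5 and NDUFA8, both of complex I, the groups did not overlap. NDUFA5 stood at 8.63, 8.37, 8.48 and 8.66 log2 CPM in CTR_2, CTR_8, CALRES_2 and CALRES_3, and at 6.12 to 8.28 in the kept libraries (log2 fold change 1.03 ± 0.30, p = 0.00212), and it did not pass without CTR_2. NDUFA8 was at 5.93, 5.83, 5.79 and 5.95 against 3.90 to 5.75 (0.77 ± 0.29, p = 0.0140).

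The 13 messengers encoded by the mitochondrial genome all had a log2 fold change above 0, with a median of 1.86, but 1 passed the threshold, beside 2.9% higher among all genes. In CTR libraries alone the median was 2.94 and in CALRES libraries alone it turned to -0.354. ATP6, a subunit of the ATP synthase, was at 12.45, 12.93, 12.12 and 11.96 log2 CPM in CTR_2, CTR_8, CALRES_2 and CALRES_3, against 9.05 to 12.63 in the kept libraries (1.49 ± 0.46, p = 0.00383), and it did not pass without CTR_2, CTR_8 or the kept CTR_6. COX1, a catalytic subunit of cytochrome c oxidase, was at 14.61, 14.61 and 14.15 in CTR_2, CTR_8 and CALRES_2 but at 10.27 in CALRES_3, within a kept range of 9.17 to 14.41 (1.998 ± 0.99, p = 0.0552). The list thus split the left-out libraries otherwise than length did. ND2 had a log2 fold change of 0.94 ± 0.42 (p = 0.0332).

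Cytosolic ribosomal proteins also have short transcripts (median 714 nt). The median log2 fold change of the 76 tested was 0.68 and 74 were above 0, but none passed p under 0.01 in either direction. RPS2 was at 12.18, 12.39 and 11.50 log2 CPM in CTR_2, CALRES_2 and CALRES_3 and at 9.79 in CTR_8, with a kept median of 10.16 and a highest kept value of 12.40 (CALRES_6). RPL12 was at 10.02, 10.07 and 9.63 in the same 3 libraries and at 7.85 in CTR_8 (log2 fold change 1.09 ± 0.39, p = 0.0103). Without the youngest pair, CTR_2 and CALRES_2, the list's median was 0.04, and with the replicate block it was -0.755. Histone genes of the replication-dependent clusters, with short messengers that carry no poly(A) tail, had 42 of 44 above 0 and a median of 0.65, with none past the threshold. The 31 proteasome genes had a median of 0.25, with 1 lower (PSMD1) and none higher, near the 3.53% of all genes that were lower.

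**Figure D5:**
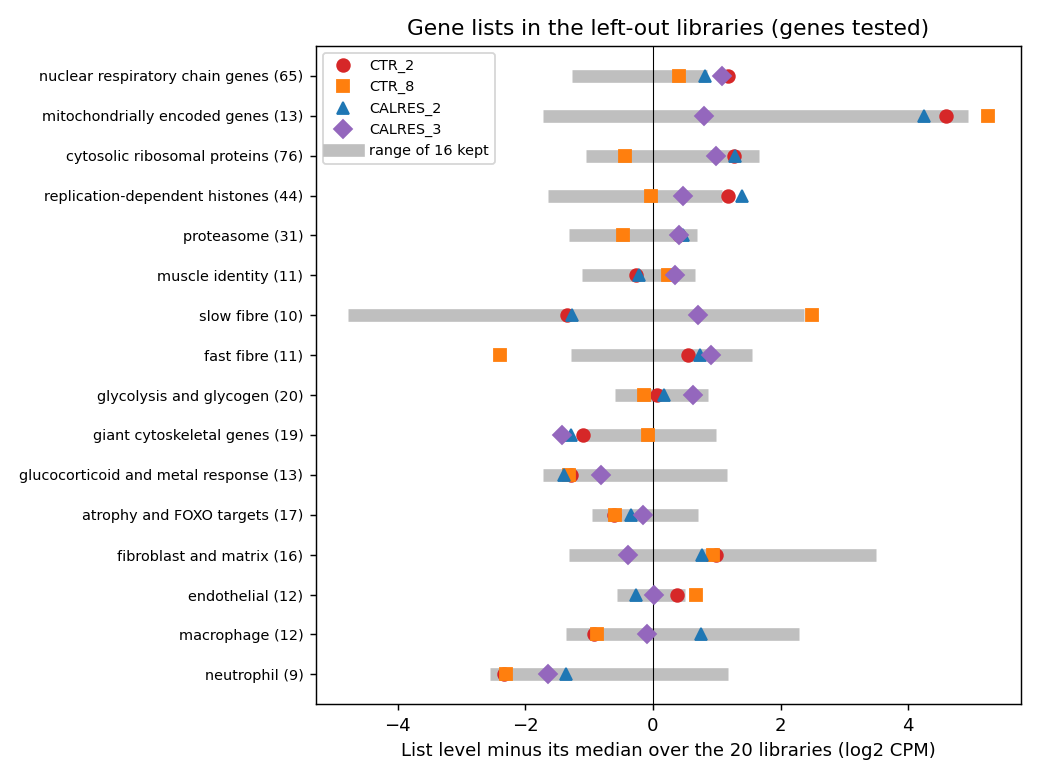
Mean level of each gene list in the 4 left-out libraries (symbols) and its range over the 16 kept libraries (grey bars). Levels are log2 CPM minus the list's median over the 16 kept libraries, although the axis label names 20. The number of genes tested is in brackets. For nuclear respiratory chain genes CTR_2 (1.18) and CALRES_3 (1.08) lay above the kept range, which ended at 0.85, and for fast fibre genes CTR_8 (-2.40) lay below it.

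The main contractile and muscle identity genes mostly did not pass the threshold in either direction. ACTA1, skeletal alpha-actin, stood at 13.17, 14.83, 13.58 and 15.37 log2 CPM in CTR_2, CTR_8, CALRES_2 and CALRES_3, within the kept range of 12.08 to 15.38 (log2 fold change 0.09 ± 0.55, p = 0.878). CKM, the muscle creatine kinase, was at 13.49, 13.90, 14.08 and 15.07 against 11.90 to 14.58 (0.57 ± 0.48), and DES, desmin, at 13.20, 12.42, 13.36 and 13.76 against 11.49 to 13.82 (0.22 ± 0.41). MB, the oxygen store myoglobin, was the only gene of the muscle identity list past the threshold, of 11 tested, beside 2.9% of all genes higher. It was at 14.003, 13.41, 12.61 and 13.77 log2 CPM, above the kept median of 11.96 in all 4 libraries and below the highest kept value of 13.60 in 2 of them (1.47 ± 0.48, p = 0.00618), and it did not pass without CTR_2, CTR_8, CALRES_3 or the kept CTR_6 or CTR_9.

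Of 11 fast fibre genes tested, 6 had a log2 fold change above 0, and the list's median was 0.17. Of the 11, MYL1 and TNNI2, with short transcripts, and MYH1, with a long one, had log2 fold changes of opposite sign. MYL1, a fast myosin light chain with a transcript of 1105 nt, was at 14.71, 13.84 and 13.74 log2 CPM in CTR_2, CALRES_2 and CALRES_3 and at 10.60 in CTR_8. Its kept median was 11.85 and its highest kept value 14.01 (CALRES_6), and the log2 fold change was 1.70 ± 0.59 (p = 0.00848, edgeR). MYL1 was the only gene of 11 past the threshold, beside 2.9% of all genes higher. It did not pass in 14 of the 20 fits that left out a library, CTR_2 among them (0.43 without it). TNNI2, fast troponin I, with a transcript of 796 nt, had 1.57 ± 0.61 (p = 0.0169), and 0.55 without CTR_2. It was at 9.42 log2 CPM in CTR_8, below the lowest kept library (10.12, CTR_10). MYH1, fast myosin heavy chain IIx, with a transcript of 6057 nt, was at 13.35, 11.99, 13.77 and 14.14 in CTR_2, CTR_8, CALRES_2 and CALRES_3 against a kept median of 14.65 (-1.47 ± 0.65, p = 0.0352). CTR_8 was low in fast fibre genes and high in slow fibre genes, at -2.40 and 2.50 log2 CPM from the lists' kept medians. Both lay outside the kept range, whose lowest value was -1.29 for fast and whose highest was 2.37 for slow fibre genes. Whether the fibre makeup of CTR_8 differed, and what part it had in these values, was not tested. In bulk muscle, fewer fibres of a type and less RNA per fibre cannot be told apart.

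CPT1A (chromosome 14 from 5932261 to 6015504), the carnitine palmitoyltransferase that admits fatty acids to mitochondria, had the lowest p of the genes with a symbol that were lower. It stood at 3.02, 3.21, 3.21 and 1.84 log2 CPM in CTR_2, CTR_8, CALRES_2 and CALRES_3, with kept libraries from 3.02 (CALRES_10) through 4.50 to 5.31. Its log2 fold change was -1.63 ± 0.36 (p = 0.000166), 0.324 of the kept level. ACACB, the acetyl-CoA carboxylase that restrains it, with a transcript of 9375 nt, was at 5.598, 6.65, 5.31 and 5.47 against 5.42 to 10.65 (-2.59 ± 0.71, p = 0.00147).

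PDK4 (chromosome 3 from 110533912 to 110546095) encodes the kinase that closes pyruvate dehydrogenase in fasting, and its transcript of 2712 nt is shorter than the median. It was at 5.73, 7.60, 5.48 and 6.397 log2 CPM in CTR_2, CTR_8, CALRES_2 and CALRES_3. The kept libraries spread from 5.84 (CTR_7) through 9.62 to 11.96 (CALRES_1), and the 4 left-out values lay at their low end. The log2 fold change was -3.94 ± 1.09 (p = 0.00155, adjusted p = 0.141, edgeR), and it lay between -4.45 and -3.65 as each library was left out. ANGPTL4, a lipoprotein lipase inhibitor with a transcript of 2194 nt, was at -0.62, -0.29, -0.43 and -2.05 log2 CPM against a kept median of 1.52 (-2.45 ± 0.86, p = 0.00950), and ZBTB16, a glucocorticoid-induced factor, had -1.57 ± 0.53 (p = 0.00697).

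PDK4, ANGPTL4 and ZBTB16 were the ones past the threshold among 13 tested of a glucocorticoid and metal response list, none higher, beside 3.53% lower among all genes, with a median log2 fold change of -1.51. The count was 1 without CTR_2, CTR_8 or CALRES_2, and 2 without CALRES_3 or the kept CTR_1, CTR_3, CTR_9, CTR_10, CALRES_5, CALRES_6 or CALRES_8. FKBP5, another glucocorticoid target, had -2.56 ± 1.04 (p = 0.0219). The metallothioneins MT1X and MT2A, with very short transcripts of 316 and 402 nt, had -3.92 ± 1.43 (p = 0.0119) and -3.20 ± 1.36 (p = 0.0280). A further metallothionein, MT1E, lay between -1.87 and -0.21 as each library was left out, and at 0.14 in CALRES libraries alone. MT1X was at 2.90, 2.91, 1.74 and 3.61 log2 CPM with a kept range of 0.75 to 9.55, so that kept libraries spread further than the groups differed. With GC content and length centred, the median of the list was -1.40.

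Of 17 atrophy genes and targets of FOXO factors, 14 were below 0 and 1 was lower past the threshold, a count near the 3.53% of all genes that were lower. FOXO3, a transcription factor that turns on protein breakdown, was at 4.56, 5.56, 4.70 and 5.02 log2 CPM in CTR_2, CTR_8, CALRES_2 and CALRES_3 against 4.84 to 8.45 (-1.84 ± 0.56, p = 0.00351). FOXO1 had -1.97 ± 0.70 (p = 0.0103), and the ubiquitin ligases TRIM63 and FBXO32 had -1.37 ± 0.52 (p = 0.0142) and -1.38 ± 0.66 (p = 0.0493). PFKFB3, which raises the glycolytic activator fructose bisphosphate, and ANGPTL4 were the 2 genes lower of 15 in the hypoxia list. That stood beside 3.53% of all genes lower, and the list's median was -0.22. In the 20 fits that left out a library, ANGPTL4 did not pass in 14 and PFKFB3 in 9. PFKFB3 was at 4.72, 2.55, 5.31 and 5.45 against a kept median of 6.38 (-2.87 ± 0.99, p = 0.00826). In glycolysis and glycogen breakdown no gene of 20 passed, and PFKM, muscle phosphofructokinase, had -1.17 ± 0.47 (p = 0.0203).

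In lists of stress and RNA turnover genes few members passed the threshold. Of 29 immediate early genes 1 passed, FOSL2, which was lower (-1.83 ± 0.58, p = 0.00441, edgeR). That count was near the 3.53% of all genes that were lower, and the list's median was -0.20. No heat shock gene of 17 passed (median -0.34), HSPA8 having 0.82 ± 0.39 (p = 0.0487). Of 27 RNA decay enzymes 1 was lower, CNOT1, the scaffold of the deadenylase complex with a transcript of 8476 nt (-1.26 ± 0.36, p = 0.00205, edgeR). This too was near the 3.53% of all genes, and the list's median was -0.04. Among 405 loci of small structural RNAs 6 were higher and 4 lower, beside 6.43% of all genes. No gene of the list of nuclear long non-coding RNAs matched a symbol in the files. The denervation and regeneration list (14 tested, median -0.91) had none past the threshold.

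Markers of other cell types were checked as lists. In the endothelial list EMCN was the 1 gene higher of 12 tested, beside 2.9% of all genes (0.97 ± 0.26, p = 0.00134, edgeR). It was at 4.88, 4.49, 4.11 and 3.95 log2 CPM in CTR_2, CTR_8, CALRES_2 and CALRES_3. The kept median was 3.45 and the highest kept value 4.57 (CALRES_8). Of the 12 genes 6 had a log2 fold change above 0, and the list's median was 0.02. EGFL7 had 0.76 ± 0.27 (p = 0.0102, edgeR), while PECAM1 had -0.39 ± 0.24 and VWF -0.54 ± 0.36. In the adipocyte list ACACB was the 1 gene lower of 11 tested, beside 3.53% of all genes, and the list's median was 0.52. The alpha globin genes HBA and HBA1, red cell markers, were the 2 genes higher of 7, beside 2.9% of all genes, while the list's median was -0.71 with 4 of the 7 below 0. HBA was at 4.04, 0.97, 2.35 and 5.01 log2 CPM in CTR_2, CTR_8, CALRES_2 and CALRES_3 (1.67 ± 0.54, p = 0.00566), falling short without CTR_2, CALRES_3 or the kept CTR_6 or CTR_9. Neutrophil genes all had a log2 fold change below 0 (9 tested, median -1.92) and none passed, with a summed level of 1.09 to 2.81 CPM in the left-out and 0.935 to 109 CPM in the kept libraries. No gene passed in the satellite cell, fibroblast, smooth muscle and pericyte, macrophage, lymphocyte, Schwann cell and slow fibre lists. The part of cell makeup in the differences was not tested.

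In 12 genes all 4 left-out libraries lay above all 16 kept ones (0.0652%), and in 12 genes below (0.0652%). The first group held the 3 genes that passed the adjusted threshold, 1 further gene without a symbol, NXT2, NDUFA5, NDUFA8, CHCHD10, NOSIP, ZSCAN12, ZNF426 and TRMU. CHCHD10, of the mitochondrial intermembrane space, was at 8.99, 8.64, 8.76 and 9.20 log2 CPM in CTR_2, CTR_8, CALRES_2 and CALRES_3 against 6.51 to 8.63 (1.01 ± 0.35, p = 0.00887). CTR_8 lay just above the highest kept library (CTR_1), and the gene did not pass in 13 of the 20 fits that left out a library. NOSIP was at 4.85, 4.93, 5.53 and 5.11 against 2.99 to 4.75 (0.93 ± 0.26, p = 0.00149). In the second group CDK5R1, the activator of a neuronal cyclin-dependent kinase, was at -0.56, -0.65, -0.43 and -0.69 against -0.28 to 2.34. IGFN1, a sarcomeric protein of the Z-disc with a transcript of 10355 nt, was at 0.61, -0.07, 1.65 and 0.86 log2 CPM against 1.87 to 7.54 (-4.13 ± 1.16, p = 0.00171). The other symbols of this group were CYP26B1, ITPR3, PIK3CD, DNAJC18, RBM33, PRKCE, ZNF217 and a locus of U6. The U6 locus had very low levels throughout, so its separation is uncertain. It was at -6.27 log2 CPM in both CTR_2 and CALRES_2 and at -5.35 to -2.62 in the kept libraries.

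Whether the difference depended on diet was tested with an interaction term. No gene passed an adjusted p of 0.05 by edgeR (smallest 0.843), 1057 had an unadjusted p under 0.05, and DESeq2 called 20. Among the genes with values here, ANXA3 (-1.85, p = 0.0122), ENSMMUG00000053137 (-1.53, p = 0.0159) and ENSMMUG00000065362 (-1.84, p = 0.0204) had the lowest p, with terms below 0, that is, a larger excess over the kept libraries in CTR than in CALRES. The left-out libraries did not vary more among themselves than the kept ones: the median SD of a gene was 0.55 log2 CPM over the 4 and 0.74 over the 16.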

How the data were processed

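The authors sequenced total RNA depleted of ribosomal RNA, trimmed and aligned the reads (STAR 2.7.10b, Mmul_10) and assigned them to genes of Ensembl 107 (featureCounts 2.0.1), and the deposited files hold whole-number counts for 35432 genes per library. Symbols matched 24186 of them. Transcript lengths and GC content are those of the longest RefSeq transcript of the same symbol on Mmul_10. Genes were filtered with edgeR's filterByExpr, scaled by TMM and tested with edgeR 4.0.16 (quasi-likelihood, diet plus left-out status, Benjamini-Hochberg over all genes) in R 4.3.3. Levels are on a log2 CPM scale, prior count 2. Library measures were compared by exact permutation within diet (2025 arrangements, smallest p 0.000494). DESeq2 1.42.0 and limma 3.58.1 were alternatives. The test was tried on simulated counts with known changes. No 2 libraries held identical values. Each library is 1 animal.

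The 4 libraries, the gene lists and the tests were chosen with earlier results of these data known, and the shares of signal recognition particle RNA and of long and short transcripts, and the use of p under 0.01, were added after seeing the data. Named genes are the 12 lowest p with a symbol in each direction, the most abundant genes, and per list the 3 of highest level and 2 of lowest p. AHNAK, FLNC, SDHB, NDUFA4, COX6C, COX7B, NDUFA5, NDUFA8, CHCHD10, NOSIP, IGFN1, MT1X, MT2A and TRIM63 were chosen after their values were seen. The second library set entered only as an alternative. Same-numbered CTR and CALRES libraries did not deviate together (0 of 7 kept pairs with a correlation over 0.1), and numbers were not taken as pairs.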

Additional observations from a re-analysis of the deposited data

Results flagged for a closer look

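In 261 groups of 4 or 8 libraries (the left-out ones, the kept CTR ones and the kept CALRES ones, for each library measure and each gene with values here), 9 held a library whose gap to its nearest neighbour was wide for the group's range. That is 3.45% of the groups, where chance alone gives about 5%. Among the left-out libraries, CTR_8 stood apart in the share of counts on transcripts over 7 kb, at 18.9% with the next library at 8.25%, and in TNRC18, at 4.78 log2 CPM with the next at 3.69. CALRES_3 stood apart below the others in CPT1A, at 1.84 log2 CPM with the next at 3.02, and in COX1, at 10.3 with the next at 14.2. CTR_2 stood apart above the others in EGFL7, at 5.19 with the next at 4.68.

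Among the kept libraries, CALRES_4 was low in NDUFA5 (6.39 log2 CPM, next 7.66), CTR_3 was high in ND2 (11.7, next 10.9), CALRES_9 was high in FOXO3 (8.45, next 6.38) and CALRES_8 was high in C15H9orf85 (3.63, next 2.54).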

How the results depend on the processing

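The 3 genes past the adjusted threshold were 0 with limma-voom, with age at death added, without the youngest pair of left-out libraries (CTR_2 and CALRES_2), over all 40 libraries, with GC and length centring, with annotated genes alone, and in CTR or CALRES libraries alone, 1 with Y-linked expression added, and 1002 with DESeq2 (258 higher and 744 lower). The cause was not tested, except that none of the 3 has an annotated length, so the last-named filter and the centring leave them out. As libraries were left out in turn the count lay between 0 and 9, all higher.

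At p under 0.01 the 534 higher genes became 318 with no diet term, 290 with age added, 88 without the youngest pair, 235 over all 40 libraries and 51 in CALRES libraries alone. The 649 lower genes became 1337 with DESeq2, 982 with limma-voom, 28 without the youngest pair, 342 with GC and length centring and 23 in CALRES libraries alone. Left out in turn, libraries gave 75 to 842 higher and 106 to 924 lower. The lower share of these genes, 54.9%, was 68.7% with DESeq2, 69.2% with age and 73.2% over all 40 libraries. No scaling moved the median of all genes by over 0.1. The interaction count of 0 became 20 with DESeq2, and was 0 with each library left out.

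With the replicate number as a block, 0 genes passed the adjusted threshold and 26 higher and 33 lower genes had p under 0.01, 9 of them among the 1183. CTR_2 and CALRES_2 share a number and cancel there, so that the block compares CTR_8 with the kept CALRES_8 and CALRES_3 with the kept CTR_3. The block turned the log2 fold changes of MYL1 (-0.032), TNNI2 (-0.66), COX7A1 (-0.53), RPS2 (-0.46), RPL12 (-0.41), EGFL7 (-0.17), DES (-0.49), NDUFA4 (-0.038) and COX6C (-0.061). Other reversals were TNNI2 without the youngest pair (-0.025), COX1 (-0.34), ND2 (-0.24) and MT1E (0.14) in CALRES libraries alone, DES in CTR libraries alone (-0.12), and ACTA1 with limma-voom (-0.11), with centring (-0.11), in CTR libraries alone (-0.13) and with libraries left out (-0.36 to 0.35).

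Without the youngest pair the differences were -0.15 for the length slope (p = 0.370, exact permutation), -7.25 points for the protein-coding share (p = 0.173), 2.77 for signal recognition particle RNA (p = 0.506), -12.6 for transcripts over 7 kb (p = 0.235) and 6.81 for those under 1.5 kb (p = 0.284), all with their direction kept. The distance to the median profile was 0.02 and turned to -0.065 without the pair and -0.068 against all 36 kept libraries. Left out in turn, libraries gave -0.052 to 0.0997 for that distance, -0.36 to -0.17 for the length slope, -0.19 to -0.091 for the GC slope, 1.59 to 4.85 points for the mitochondrially encoded share, -3.57 to 2.50 for the share of the 10 most abundant genes, -15.9 to -7.45 for the protein-coding share, 3.36 to 8.50 for signal recognition particle RNA, -18.0 to -12.2 for transcripts over 7 kb and 7.998 to 17.6 for those under 1.5 kb. Of 457 medians of gene lists under 16 alternatives, 23 moved by more than the spread of the kept libraries (1 SD) and 47 changed sign. The 23 were 9 with the replicate block, 6 in CTR and 5 in CALRES libraries alone, 2 with at least 10 counts in every library, and that of the histones without the youngest pair (-0.15).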
